A study of Mus musculus with 2 samples.

Results

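The core histones H2A, H2B, H3 and H4 wrap DNA into nucleosomes, and the linker histones of the H1 class bind the DNA between them. The 48 genes described here are those whose name in both scanner files begins with Hist and a digit, H1f, H2af or H3f. They were read by 70 of the 41170 probes with a usable spot on both arrays. Of the 48 genes, 43 were measured, which means well above background on both arrays, out of 17021 genes measured in all. Their names are those of the array design, and current RefSeq symbols are given where they help.

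LSK cells, the bone marrow cells without lineage markers that carry Sca-1 and c-Kit, were sorted from PAD4-/- and from wild-type (WT) mice, both of strain C57BL/6, and each genotype was read on 1 array. The labels and files leave out the age and sex of the mice, how many were pooled, and which part of Padi4 was removed in which cells. Padi4 itself had signals of 2670, 1394 and 59.4 at its 3 probes on the PAD4-/- array, against 12879, 6813 and 254 on the WT array, so the targeted gene was lower in the library labelled PAD4-/- at each probe. PAD4, the product of Padi4, turns arginine into citrulline, and histones H3, H4 and H1 are among its known substrates, so the design asks which transcripts differ when this enzyme is missing.

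Most of the genes named Hist lie in 4 clusters. They are copied into messenger RNA mainly while DNA is replicated, and most of these messages end in a stem loop instead of a poly(A) tail. The other genes, here called replacement variants, are expressed through the cell cycle from polyadenylated messages; they include the H3.3 and H2A.Z genes, the macroH2A genes and the linker histones H1f0 and H1fx, which are placed in chromatin outside replication. The labelling kit named in the labels primes from poly(A) tails, so a signal of a cluster gene may come from the part of its message that carries such a tail; the size of that part was not tested.

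With 1 array a genotype no difference has a replicate check and no test was possible. Differences are given as log2 of PAD4-/- over WT after each array was scaled to its 75th percentile, which was a signal of 786 on the PAD4-/- array and 814 on the WT array. The error beside a difference is the scanner's own estimate and leaves out the variation between mice. For a bright probe it was 0.20, because the scanner software gave an error close to a fixed share of the signal on each array. Repeat spots of the same probe varied less, with an SD of 0.051 on the PAD4-/- array and 0.057 on the WT array at the median over probes. No histone probe was saturated, and each was printed in 1 spot. Signals of different probes cannot be ranked, since a probe's brightness also depends on its sequence.

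The replication-dependent cluster genes were mostly higher on the PAD4-/- array by a small amount, and the replacement variants were not. Of the 33 measured cluster genes 30 lay above 0 and 3 below, where 55% of all measured genes lay above 0 and 45% below, and between 27 and 30 of the 33 lay above 0 under each of the scalings tried. Their median difference was 0.18, against 0.02 over all 17021 genes. Of the 10 measured replacement variants 5 lay above 0 and 5 below, with a median of -0.01. With quantile, median or loess scaling 1 or 2 of the 10 lay above 0. Their median was then -0.051, -0.070 and -0.053, in that order. The median of all genes also moved down, to 0.010, -0.032 and 0.011. The share of all genes above 0 was counted only with the main scaling, so counts above 0 under other scalings have no comparison. The separation of the 2 kinds was one of degree, since both ranges contain 0.

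Large differences were few. Of the 43 measured histone genes, 2 were at least 1.5-fold higher and 0 were at least 1.5-fold lower on the PAD4-/- array; across all genes 2.88% were that much higher and 1.87% that much lower, so the share of large differences among the histones was near that of all genes. At 2-fold, 0 histone genes were higher and 0 lower, where 1.01% and 0.476% of all genes were. By the smaller measure of the scanner error, 11 of the 43 were higher by more than their error, where 16.2% of all genes were, and 3 were lower by more than their error, where 14.2% of all genes were. All 11 of these higher genes were cluster genes, and 2 of the 3 lower ones were the linker histones H1f0 and H1fx. The other 29 differed by no more than their error.

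**Figure D1:**
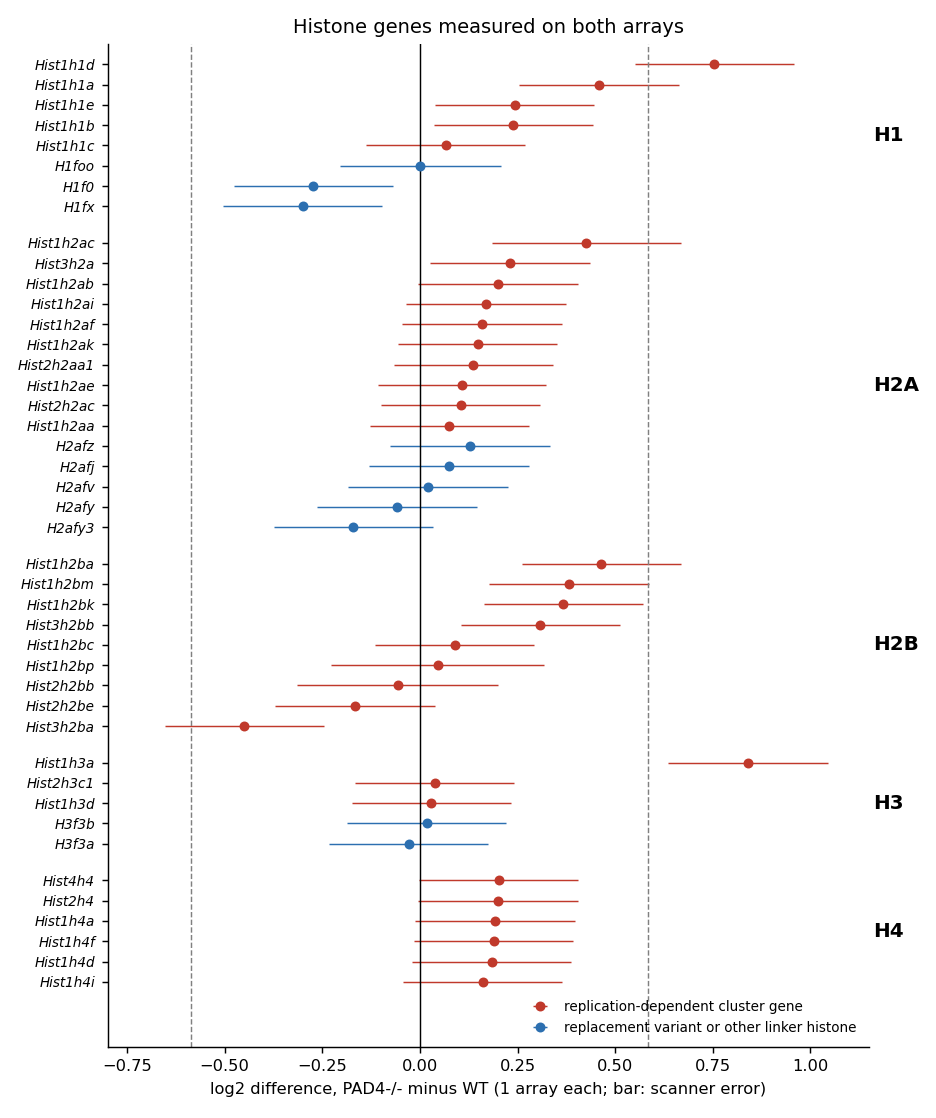
Log2 difference (PAD4-/- minus WT, 1 array each) of the 43 histone genes measured on both arrays, by class; red points are cluster genes, blue points replacement variants and other linker histones, bars the scanner error, and dashed lines a 1.5-fold difference. Of the red points 30 of 33 lie right of 0, Hist1h3a (0.84) and Hist1h1d (0.75) lie beyond the dashed line, and the 2 lowest blue points are H1fx (-0.30) and H1f0 (-0.27).

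The linker histones showed the widest split. H1 proteins bind where DNA enters and leaves the nucleosome and favour compact chromatin; the cluster encodes several somatic subtypes that are made mainly in S phase, whereas H1f0 is best known for building up in cells that have stopped dividing. All 5 measured cluster H1 genes lay above 0 (median 0.24), and of the 3 other measured linker genes 2 were below 0 by more than their error.

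Hist1h1d (now H1f3; probe at mm8 chr13:23563048-23563107) had a signal of 1468 on the PAD4-/- array and 901 on the WT array, a difference of 0.75 (error 0.20) or 1.69-fold. Its second probe was close to the detection limit, with 26.8 on both arrays, and gave 0.05, so the mean over both probes was 0.40 and no longer 1.5-fold. Hist1h1a (now H1f1) had a signal of 2863 on the PAD4-/- array and 2156 on the WT array, a difference of 0.46. These were the cluster H1 genes with the largest differences.

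Hist1h1b (now H1f5) had 14219 on the PAD4-/- array and 12468 on the WT array, a difference of 0.24. Hist1h1e (now H1f4) had 6924 on the PAD4-/- array and 6056 on the WT array, also a difference of 0.24. Hist1h1c (now H1f2) had 5322 on the PAD4-/- array and 5262 on the WT array, a difference of 0.07, well inside its error of 0.20. The cluster subtypes therefore ran from no measurable difference at Hist1h1c to 1.69-fold at Hist1h1d. Hist1h1t, the testis subtype from the same cluster, was well above background on the PAD4-/- array only, with a signal of 27.7 there and 15.4 on the WT array, at least 1.62-fold higher; both values are dim.

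H1f0, encoding H1.0, had a signal of 1849 on the PAD4-/- array and 2313 on the WT array, a difference of -0.27 (error 0.20). All 3 of its probes lay below 0, between -0.27 and -0.14. H1fx (now H1f10) had 23497 on the PAD4-/- array and 29953 on the WT array, a difference of -0.30 (error 0.20), and the other probe of this gene gave -0.32. Both genes stayed below 0 under each scaling and background correction tried, and neither reached 1.5-fold. H1foo, the oocyte linker histone, had 239 on the PAD4-/- array and 247 on the WT array, a difference of 0.00 (error 0.21). H1fnt, a linker histone of the testis, was well above background on neither array.

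**Figure D2:**
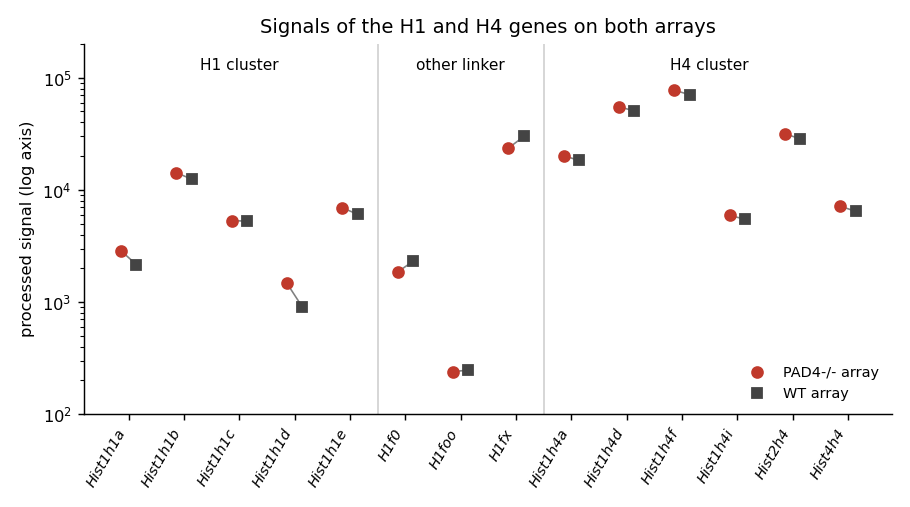
Processed signal (log axis) of the 8 measured H1 genes and the 6 H4 genes on the PAD4-/- array (red circles) and on the WT array (grey squares), 1 array each, unscaled, with lines joining the 2 values of a gene. Cluster H1 and H4 genes sit slightly higher on the PAD4-/- array, most clearly Hist1h1d (1468 on the PAD4-/- array and 901 on the WT array), and H1f0 and H1fx sit lower there; heights of different genes cannot be compared.

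Promoters of 42 of the 48 genes were found in the RefSeq table of build GRCm38.p6, and 4 short motifs were searched on both strands in the 250 bases before the start: CCAAT, the site of NF-Y, TATAAA, the TATA box, AAACACA, the H1 box, and ATTTGCAT, the octamer known from H2B promoters. The letters of these motifs do not contain one another. The following 150 bases before the start show a cluster H1 gene with the H1 box, a cluster H1 gene without it, and the replacement gene H1f0, printed 5′ to 3′ on the gene's strand with matches in capitals. They are from chr13:23554882-23555031, plus strand, chr13:23763518-23763667, plus strand and chr15:79028062-79028211, plus strand.
Hist1h1d: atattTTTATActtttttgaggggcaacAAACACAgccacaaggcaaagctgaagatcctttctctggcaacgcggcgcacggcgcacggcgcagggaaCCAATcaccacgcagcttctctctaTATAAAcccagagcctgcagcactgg
Hist1h1a: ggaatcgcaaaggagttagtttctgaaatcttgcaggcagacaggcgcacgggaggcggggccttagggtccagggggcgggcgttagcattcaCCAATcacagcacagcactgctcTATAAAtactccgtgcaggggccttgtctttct
H1f0: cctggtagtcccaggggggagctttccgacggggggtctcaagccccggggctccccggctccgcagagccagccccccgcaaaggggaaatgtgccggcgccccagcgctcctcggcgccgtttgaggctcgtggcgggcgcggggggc
Hist1h1d holds AAACACA 122 bases, CCAAT 51 bases and TATAAA 26 bases before its start, and a second TATAAA on the opposite strand 145 bases before it. Hist1h1a holds CCAAT at 56 and TATAAA at 33 bases, and H1f0 holds none of the 4 motifs in these letters. Of the 6 cluster H1 promoters 6 held CCAAT and 5 held AAACACA, where 34.5% and 6.22% of all 27025 promoters did. Hist1h1a was the one without AAACACA.

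Among the H2A genes the cluster members formed a narrow band just above 0. H2A pairs with H2B in the nucleosome, and most cluster genes encode nearly the same protein. All 10 measured cluster H2A genes lay above 0, with a median of 0.15, and 2 of them exceeded their error. Hist1h2ac had a signal of 74.9 on the PAD4-/- array and 57.7 on the WT array, a difference of 0.43 (error 0.24), from a dim probe. Hist3h2a had 68922 on the PAD4-/- array and 60793 on the WT array at its brightest probe, a difference of 0.23 (error 0.20), but its 3 measured probes ran from -0.15 to 0.23 and so did not share a direction. The other 8 cluster H2A genes lay between 0.08 and 0.20, each within its error.

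Hist1h2ab had a signal of 18086 on the PAD4-/- array and 16297 on the WT array, a difference of 0.20. Hist1h2af had 265747 on the PAD4-/- array and 246438 on the WT array, which gives 0.16, and the other probe of this gene gave 0.19. Hist2h2ac had 272577 on the PAD4-/- array and 262495 on the WT array, a difference of 0.10 at both of its probes. These are small steps in the same direction. Hist1h2ai had 20707 on the PAD4-/- array and 19058 on the WT array, a difference of 0.17. Hist1h2ak had 39671 on the PAD4-/- array and 37073 on the WT array, a difference of 0.15. Hist2h2aa1 had 3121 on the PAD4-/- array and 2938 on the WT array, a difference of 0.14. The probe of Hist1h2ae, with 114 on the PAD4-/- array and 109 on the WT array, gave 0.11, so this gene too lay in the band. Hist1h2aa, a testis H2A gene, had 328435 on the PAD4-/- array and 322591 on the WT array, a difference of 0.08. The files list only this gene for its probe, and whether the signal came from other H2A messages was not tested. Hist2h2aa2 was well above background on neither array at either probe.

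The H2A replacement variants lay on both sides of 0, and none of the 5 measured exceeded its error. H2A.Z marks promoters and is placed by exchange complexes; its genes H2afz and H2afv differed by 0.13 and 0.02. H2afz had a signal of 65090 on the PAD4-/- array and 61657 on the WT array. A second probe that the files name H2afz, but place on another chromosome (mm8 chromosome 6, against chromosome 3 for the first), was well above background on the WT array only, with 5.64 on the PAD4-/- array and 28.5 on the WT array. H2afj, a variant linked to senescent cells, had 253478 on the PAD4-/- array and 249209 on the WT array, a difference of 0.07.

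H2afy encodes macroH2A1, a large variant with a macrodomain that is found on silent chromatin. It had 37775 on the PAD4-/- array and 40734 on the WT array, a difference of -0.06, and all 3 of its probes lay below 0, down to -0.23. H2afy3, listed by RefSeq as a transcribed pseudogene, had 1128 on the PAD4-/- array and 1314 on the WT array, a difference of -0.17. H2afy2, the macroH2A2 gene, was well above background on neither array.

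The H2B genes ran from -0.45 to 0.46, the widest range of the core histone classes. All 5 measured H2B genes of the Hist1 cluster lay above 0, with a median of 0.37, whereas of the 4 H2B genes of the Hist2 and Hist3 clusters 3 lay below 0 and 1 above, with a median of -0.11. Of those 3 only Hist3h2ba was lower by more than its error, and the difference between the clusters was not tested. H2B has no replacement variant among these genes. Hist1h2ba, the testis H2B gene, had a signal of 4535 on the PAD4-/- array and 3401 on the WT array, a difference of 0.46 (error 0.20). Whether this signal came from other H2B messages was not tested. Hist1h2bm had 8339 on the PAD4-/- array and 6627 on the WT array, a difference of 0.38. Hist1h2bk had 8081 on the PAD4-/- array and 6486 on the WT array, which gives 0.37, and the other probe of this gene gave 0.44. These 3 were higher by more than their error. Hist1h2bc, at 0.09, and the dim Hist1h2bp, at 0.05, were within theirs, and Hist1h2be was well above background on neither array. For the Hist1h2bm probe the files list 4 RefSeq genes, among them Hist1h2bc, and they list 4 for each Hist1h2bk probe. The values of Hist1h2bm and Hist1h2bk are therefore not measurements of single genes.

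Hist3h2ba (now H2bu2) was the cluster gene furthest below 0, with a signal of 2156 on the PAD4-/- array and 3048 on the WT array, a difference of -0.45 (error 0.20) that stayed between -0.51 and -0.42 under each scaling and background correction tried. Its neighbour Hist3h2bb, whose RefSeq symbol H2bu1-ps marks a pseudogene, had 7152 on the PAD4-/- array and 5978 on the WT array, a difference of 0.31. The files list Hist3h2ba as a second target of the Hist3h2bb probe, so neighbouring probes with a shared target lay on opposite sides of 0. Hist2h2be had 1318 on the PAD4-/- array and 1532 on the WT array, a difference of -0.17, and Hist2h2bb had 46.3 on the PAD4-/- array and 49.9 on the WT array, a difference of -0.06; both were within their error.

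The promoters of the H2B genes on each side of 0 are shown for Hist1h2bm (chr13:21721894-21722043, plus strand) and Hist3h2ba (chr11:58948761-58948910, plus strand), as the 150 bases before the start with motif matches in capitals.
Hist1h2bm: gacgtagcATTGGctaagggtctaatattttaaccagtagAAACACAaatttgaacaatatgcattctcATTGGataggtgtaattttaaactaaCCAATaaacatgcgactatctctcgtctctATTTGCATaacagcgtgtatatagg
Hist3h2ba: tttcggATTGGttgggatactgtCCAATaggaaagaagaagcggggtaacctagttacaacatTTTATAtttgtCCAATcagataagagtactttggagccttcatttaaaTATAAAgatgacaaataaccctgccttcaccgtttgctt
Hist1h2bm holds the octamer ATTTGCAT 25 bases before its start, CCAAT on either strand at 142, 81 and 55 bases, and AAACACA at 110 bases. Hist3h2ba holds CCAAT on either strand at 144, 127 and 76 bases and TATAAA at 39 bases and, on the opposite strand, at 87 bases, and no octamer in these letters. All 7 cluster H2B promoters in the table held CCAAT at least 2 times, where 10.5% of all promoters did, and 4 of the 7 held the octamer, where 1.61% of all promoters did. The 4 were those of Hist1h2ba, Hist1h2bk, Hist1h2bm and Hist2h2bb. Neither trait was particular to H2B: of the 11 cluster H2A promoters, 10 held CCAAT at least 2 times and 6 held the octamer.

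The H3 genes held the largest single difference of all members and otherwise lay near 0. H3 carries the tail arginines that PAD4 is best known to citrullinate. Hist1h3a (now H3c1; probe at mm8 chr13:23769352-23769411) had a signal of 785 on the PAD4-/- array and 454 on the WT array, a difference of 0.84 (error 0.20) or 1.79-fold, from its only probe. It stayed at 0.77 or above under each alternative. Hist1h3d had 50362 on the PAD4-/- array and 51096 on the WT array, a difference of 0.03. Hist2h3c1 had 82025 on the PAD4-/- array and 82706 on the WT array, a difference of 0.04. For each of these last 2 probes the files list 4 RefSeq transcripts, mostly of other H3 genes, and for the Hist1h3a probe they list only Hist1h3a.

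The genes of H3.3, the H3 variant put in at active genes and at chromosome ends outside replication, were level on both arrays. H3f3a had a signal of 70221 on the PAD4-/- array and 74144 on the WT array, a difference of -0.03, and its 3 probes ran from -0.03 to 0.08. H3f3b had 107870 on the PAD4-/- array and 110352 on the WT array, a difference of 0.02, and its 3 probes ran from -0.02 to 0.14. Each value lay inside the error of 0.20. The median over the 5 H3 genes was 0.03 and turned to -0.03 with quantile and with median scaling and to -0.01 with loess, so the class has no direction.

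The 6 H4 genes formed the tightest group. H4 is the most conserved core histone, and its many genes encode the same protein. The differences lay between 0.16 (Hist1h4i) and 0.20 (Hist4h4), with a median of 0.19, all above 0 and each within its error of 0.20. Hist1h4a had a signal of 20198 on the PAD4-/- array and 18298 on the WT array. Hist1h4d had 55318 on the PAD4-/- array and 50409 on the WT array, and its 2 probes gave 0.18 and 0.20. Hist1h4f had 77566 on the PAD4-/- array and 70453 on the WT array. The differences of these 3 genes were 0.19, 0.18 and 0.19.

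Hist1h4i had 5914 on the PAD4-/- array and 5477 on the WT array. Hist2h4 had 31640 on the PAD4-/- array and 28505 on the WT array, a difference of 0.20. Hist4h4, alone in its cluster on chromosome 6, had 7152 on the PAD4-/- array and 6438 on the WT array. For 3 of the 6 probes the files list RefSeq transcripts of 3 or 4 H4 genes, so the values of Hist1h4a, Hist1h4d and Hist1h4f share targets and are not separate measurements. The promoter of Hist1h4d (chr13:23581418-23581567, plus strand) is shown as the only one of the 5 H4 promoters found that holds both CCAAT, on the opposite strand 40 bases before the start, and TATAAA, 32 bases before it.
Hist1h4d: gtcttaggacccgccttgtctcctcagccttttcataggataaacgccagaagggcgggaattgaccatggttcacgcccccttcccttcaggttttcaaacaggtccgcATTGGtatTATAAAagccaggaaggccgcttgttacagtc
Of these 5 promoters 2 held CCAAT, 3 held TATAAA and 0 held the octamer or the H1 box.

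Listed sharing of targets was common across the clusters, and cluster genes with and without such a listing had similar medians. Of the 40 measured cluster probes, 14 were listed in the files with 2 or more RefSeq genes, up to the 4 that a probe lists. The 12 cluster genes read by such a probe had a median of 0.18 and lay above 0 in 12 of 12 cases. The 21 others, whose probe lists 1 or no RefSeq gene, had a median of 0.20 with 18 above 0. Where no gene is listed, sharing is unknown. Both genes beyond 1.5-fold, Hist1h3a and Hist1h1d, were read by probes listing 1 gene. Among the 12 members with several measured probes, 9 had all probes on the same side of 0.

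By position, every one of the 23 measured genes of the Hist1 cluster on chromosome 13 lay above 0, with a median of 0.19. These genes span 2.21 Mb in mm8, in 2 parts separated by a gap of 1.49 Mb. The 7 genes of the first part had a median of 0.17 and the 16 genes of the second part 0.19, and both genes beyond 1.5-fold lay in the second part. Some probes list several genes, so not every value belongs to a single position. The Hist1h2bm probe of the first part also lists Hist1h2bc, which lies in the second part. Hist1h4a, beside Hist1h3a, differed by 0.19, and Hist1h1a, on its other side, by 0.46. The probes of these neighbours did not match the size of the largest difference. However, the Hist1h4a probe lists 3 H4 genes and may not read that position alone. The 6 measured genes of the Hist2 cluster on chromosome 3 had a median of 0.07 with 4 above 0, and the 3 of the Hist3 cluster on chromosome 11 ran from -0.45 to 0.31. With median scaling Hist1h2bp and Hist1h3d of the Hist1 cluster fell just below 0, at -0.01 and -0.03. With quantile scaling they were at -0.030 and 0, and Hist1h3d was at -0.0081 with loess and -0.0030 with normexp background correction.

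**Figure D3:**
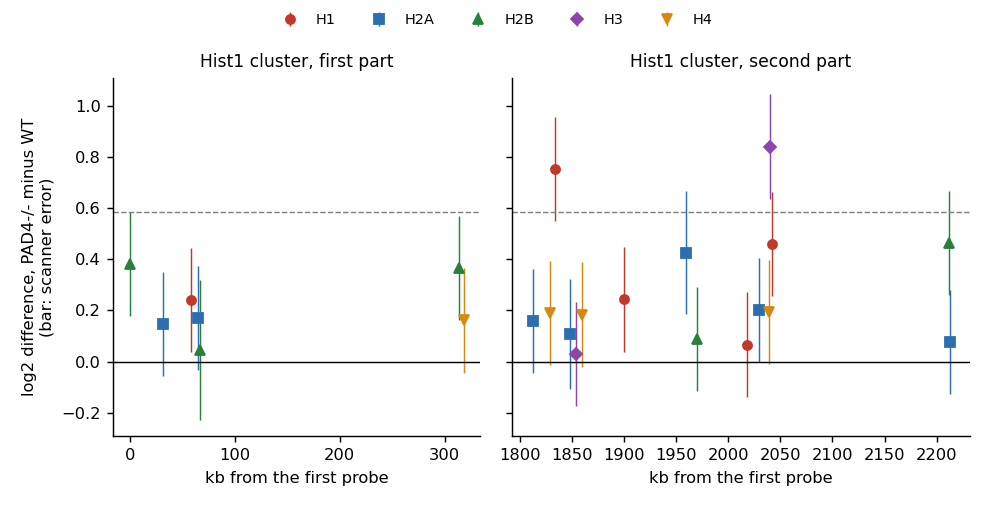
Log2 difference (PAD4-/- minus WT, 1 array each) of the 23 measured Hist1 genes against the distance of their probe from the first one in kb, with the scanner error as bars, 1 panel for each part of the cluster and the histone class as colour and shape. All points lie above 0, and only Hist1h1d (0.75) and Hist1h3a (0.84) lie above the dashed 1.5-fold line.

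Across all cluster promoters, 27 of 31 held CCAAT (87.1%), 17 held TATAAA (54.8%), 10 held the octamer and 9 held the H1 box. Of the 11 promoters of replacement variants 6 held CCAAT and 1 held TATAAA. In all 27025 promoters of the table the shares were 34.5% for CCAAT and 13% for TATAAA. A match says only that the letters are there.

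Genes that make, process and place histones were near the level of all genes. The messages of cluster genes are switched on through NPAT, trimmed at the stem loop by the U7 machinery and bound by SLBP. The 19 measured genes of histone message transcription and processing had a median of 0.09. Of these, 1 was at least 1.5-fold higher and 0 lower, where 2.88% and 1.87% of all genes were. That gene was Zfp473, which encodes a zinc finger protein of the U7 particle, with a signal of 166 on the PAD4-/- array and 88.4 on the WT array, a difference of 0.96 (error 0.21) and 0.30 at its second probe. Slbp, at 0.13, Npat, at -0.03 (-0.25 at its other probe), and Casp8ap2, which acts with NPAT, at 0.19, were within their error at the brightest probe. The 10 genes of histone message decay had a median of 0.01, and none of them was 1.5-fold different at its brightest probe. Pnpt1 gave 0.29 at that probe and 0.70 at its other probe.

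Histone chaperones carry new or exchanged histones to DNA. The 14 genes of the replication-coupled path had a median of 0.08 with 0 members 1.5-fold different. Nasp, which holds soluble H3 and H4, had a signal of 11576 on the PAD4-/- array and 9512 on the WT array, a difference of 0.33, and Asf1b, which hands H3 and H4 on, differed by 0.22. Chaf1a, the large CAF-1 subunit that receives them at the fork, had 4247 on the PAD4-/- array and 5332 on the WT array, a difference of -0.28. Members of 1 path thus lay on both sides of 0 by more than their error of 0.20.

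The 17 genes of the replication-independent path had a median of 0.05 (-0.0085 with median scaling), again with 0 members 1.5-fold different at the brightest probe. Other probes went further: the 3 of Cabin1 ran from -0.69 to 0.15 and the 3 of Ubn1 from -0.59 to -0.07. Hira, which places H3.3, had 359 on the PAD4-/- array and 493 on the WT array at its brightest probe, a difference of -0.41, but its 3 probes ran from -0.41 to 0.06. Daxx, the other H3.3 chaperone, differed by -0.07.

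Since cluster histone messages are bound to S phase, cell cycle genes were set beside them. The 30 genes of S phase and DNA replication had a median of 0.08, with 20 above 0, a range of -0.33 to 0.49 and 0 members 1.5-fold different. The 18 genes of mitosis had a median of 0.08, with 16 above 0 and 0 members 1.5-fold different. Across all measured genes 55% lay above 0, so the mitosis genes, like the cluster histone genes, were mostly above 0. By more than their error, 8 S phase and 4 mitosis genes were higher, where 16.2% of all genes were. By the same measure 2 S phase and 0 mitosis genes were lower, where 14.2% of all genes were. With median scaling, which moved all genes down by the same step, these medians were 0.022 and 0.0195. The histone cluster median of 0.18 lay above both, and the difference between the lists was not tested.

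**Figure D4:**
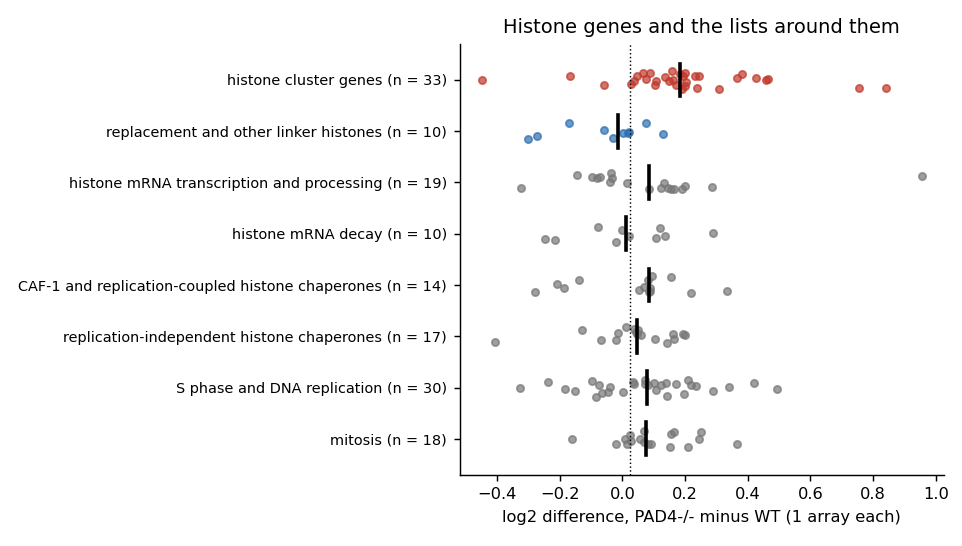
Log2 difference (PAD4-/- minus WT, 1 array each) of the 33 cluster histone genes (red), the 10 replacement variants and other linker histones (blue) and the genes of 6 surrounding lists (grey), 1 point a gene, with black bars at the medians and a dotted line at the median of all genes (0.02). The cluster genes have the rightmost median (0.18), the replacement variants lie around 0, and the lists have medians between 0.01 and 0.09.

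Other transcripts also differed between these arrays, and their part in the histone differences was not tested. The sort markers Kit and Ly6a differed by 0.07 (error 0.06) and -0.14 (error 0.20), and Flt3, a progenitor receptor, by -0.67, the only one of 10 measured LSK and progenitor genes beyond 1.5-fold. The summed signal of these 10 was 131620 on the PAD4-/- array and 144116 on the WT array. Markers of committed blood cells were mostly higher on the PAD4-/- array: at least 1.5-fold in 5 of 10 measured erythroid, 3 of 11 neutrophil, 6 of 9 monocyte and dendritic, 6 of 9 B and plasma cell, 4 of 5 mast cell, 3 of 6 megakaryocyte and 2 of 6 T and NK cell genes, with 1 T and NK cell gene that much lower. Over the erythroid list the summed signal was 29147 on the PAD4-/- array and 29153 on the WT array, and over the neutrophil list 180418 on the PAD4-/- array and 122618 on the WT array. The monocyte and dendritic list summed to 75978 on the PAD4-/- array and 64687 on the WT array, and the B and plasma cell list to 18672 on the PAD4-/- array and 11510.5 on the WT array. The 3 shorter lists were the mast cell list, with 3697 on the PAD4-/- array and 2085 on the WT array, the megakaryocyte list, with 13078 on the PAD4-/- array and 10439 on the WT array, and the T and NK cell list, with 16790 on the PAD4-/- array and 17444 on the WT array. Among these 7 lists, except for the erythroid and T and NK cell lists, whose sums were near equal, the sums were higher on the PAD4-/- array. These are sums of unscaled signals, and 1 bright gene can carry them. Car2 gave 21958 of the erythroid sum on the PAD4-/- array and 22721 on the WT array. Nkg7 gave 16115 of the T and NK cell sum on the PAD4-/- array and 16948 on the WT array. Mpo gave 118188 of the neutrophil sum on the PAD4-/- array and 81966 on the WT array. Cd34 gave 85480 of the LSK and progenitor sum on the PAD4-/- array and 95103 on the WT array. Cd3d and Cd3g of the T and NK cell list and Ms4a2 of the mast cell list were not well above background on at least 1 of the arrays. Xist had a signal of 16255 on the PAD4-/- array and 3.93 on the WT array, where it was not well above background, and Ddx3y differed by -1.36, so the arrays also differed in sex-linked transcripts. In such bulk RNA, fewer cells of a type and less RNA per cell cannot be told apart.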

How the data were processed

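Expression was measured on 2 one-colour Agilent arrays, 1 for each genotype. Per the file headers, the authors' scanner files come from Feature Extraction 9.5.3.1 (9.5 in the submitters' processing notes), array design 014868, with probe coordinates on mm8. The deposited intensity values are processed signals after background subtraction and spatial detrending. The deposited value table is log2 of the processed signal minus a constant, 9.67 for the WT array and 9.62 for the PAD4-/- array, for all 41174 probes, which settles its scale, centring and direction.

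Control and outlier spots were left out, spots of a probe were averaged on the log2 scale, and each array was scaled to its 75th percentile. The value of a gene is that of its brightest measured probe. Genes were named through the RefSeq table of GRCm38.p6: 24371 probes by accession, 6301 by symbol, 2426 by synonym and 8072 left under their array name. For a gene above background on 1 array only, the fold is a bound: the dim array counts at its own value or its lowest value well above background, whichever is higher. With 1 array a group, differences were counted at 1.5-fold and the number of arrays limits the precision. The members and gene lists were chosen with earlier results of these data known. One H2A gene is not reported here.

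The genes named were all histone genes above background, Padi4, the 4 sex-linked genes, and 8 processing and chaperone genes. Of each pathway list, the largest differences of at least 1.5-fold at any measured probe were named too. Marker genes beyond the sort markers, Flt3, those below background and the brightest of some lists are given as counts. Alternatives were normexp background correction (offset 50), quantile, median, detected-probe and loess scaling (window 0.3), the deposited table, averaging the probes of a gene, 2 looser filters on signal, and a lower and a higher fold. The steps were tested on simulated data. Python 3.11.15 with numpy 2.4.6, pandas 2.3.3 and statsmodels 0.14.6, and limma 3.58.1 in R 4.3.3, were used.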

Additional observations from a re-analysis of the deposited data

How the results depend on the processing

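No paired analysis was possible because there is a single array for either genotype, and for the same reason no replicate could be left out. The median of all histone genes, 0.14, was 0.10 with quantile normalization, 0.081 with median scaling and 0.095 with loess, and 0.098 without probes listing 2 or more RefSeq genes, a choice made after seeing the data. Median scaling lowered every gene by 0.06 by construction: it gave 0.13 for the cluster genes, 0.072 for the H2A class, 0.031 for histone message processing, 0.028 for replication-coupled and -0.0085 for replication-independent chaperones, 0.022 for S phase and 0.0195 for mitosis. The H1 median of 0.15 was 0.24 with genes above background on at least 1 array, as Hist1h1t entered. The mean over probes gave 0.032 for message processing. The count of 2 higher and 0 lower genes was 1 higher with the mean over probes, as Hist1h1d dropped out, 7 higher and 1 lower at a threshold of 0.32 on the log2 scale, and 0 higher at 2-fold. Both looser signal filters gave 3 higher and 0 lower. Among fold thresholds, the share of all genes was counted only at 1.5-fold and 2-fold with the main settings. The fold counts at 0.32 and under other settings therefore have no comparison. The medians of the H2B, H3 and H4 classes and of the replacement variants moved by less than the tolerance used, the median scanner error over the square root of the number of genes. Of 43 member values none moved by more than its scanner error under any alternative except the mean over probes, where 1 did, Hist1h1d. Signal over background limits the dim members. At most 7 members changed sign under any 1 alternative.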
